A study of Homo sapiens with 6 samples.

Results

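The 9 genes described here encode cytosolic enzymes that make or salvage nucleotide sugars, the activated sugars from which glycans are built, or that handle mannose. MPI and PMM2 carry glucose-derived sugar into mannose phosphates, GMPPB is the catalytic and GMPPA the regulatory subunit that forms GDP-mannose, and GFUS completes GDP-fucose from it. GALK1 and GALT are consecutive enzymes of galactose use, GNE starts sialic acid synthesis from a nucleotide sugar, and MAN2C1 is a mannosidase that trims free oligosaccharides in the cytosol. A retained intron stays in an otherwise spliced and polyadenylated RNA, which is commonly held in the nucleus or degraded. Members were all rows of these genes in the retained intron and skipped exon tables with a mean of at least 20 junction reads per library. This gave 44 of 62 intron rows, out of 12867 that met the minimum in the whole series, and 127 of 208 exon rows, out of 101163. The genes were grouped by function, and all 9 were chosen with earlier results of these data known. GFUS was put at their head with its change known. The GFUS introns are therefore described without a p, and the counts of changed introns are given without them, except where GFUS is said to be included. For the other members p-values and counts are given, and these too come from genes chosen with results known.

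HEK293A-TOA cells, derived from the human embryonic kidney line HEK293, received a mix of siRNAs against SFSWAP (siSFSWAP) or a non-target siRNA (siNT). SFSWAP encodes a splicing regulator with an arginine-serine-rich region, and the question was which introns and exons respond when it is depleted. The labels give 40 nM siRNA and RNA collection 5 days after transfection, with 3 biological replicates per group and 1 cell line throughout. A replicate is a separate sample of that line. The p-values set the group difference against the spread between these samples, moderated over all tested rows or genes. In rows where 1 group had full inclusion in every library, that group showed no spread. The p of such a row rests on the other group and on the spread of other rows, and several calls below are of this kind. Libraries carry the letters a, b and c by their place in the tables' lists, and no label ties a letter to a replicate number. Junction reads over retained introns summed to 4450930, 2767079 and 3137466 in siSFSWAP, against 7465949, 3197101 and 2827762 in siNT. SFSWAP itself had 34.7, 34.7 and 21.3 CPM (spliced reads of a gene scaled by the library's total) in siSFSWAP, against 79.7, 86.5 and 80.2 CPM in siNT, so the knocked down gene was lower in every siSFSWAP library. Of 7 HEK293 markers, VIM, KRT8, KRT18 and LIN28B had reads in every library, while NEFM, NEFL and PAX2 had none. Among markers of other cells, PTPRC, CD3E, PECAM1 and ALB had no reads, and COL1A1 had 0.371 to 0.514 CPM. Library a of siNT stood apart. Its median retention over all 10155 tested introns was 6.98%, inside the 6.47% to 7.39% of the siSFSWAP libraries, whereas siNT b and c had 9.27% and 9.68%. Over the 40 tested member introns, GFUS included, the medians were 15.3%, 20.4% and 19.4% in siSFSWAP, against 23.1%, 34.5% and 45.6% in siNT. The genes were chosen with results known, so this difference is no separate evidence.

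All 44 member introns ended in AG, and 43 began with GT and 1 with GC. Of these introns, 31 belong to the canonical transcript of their gene in GENCODE release 44, all of them between coding exons, and the other rows use alternative splice sites or span an exon. In 25 of the 31, translation read on from the upstream exon meets a stop codon inside the intron. The tested member introns had a median length of 181 nucleotides, from 81 to 1257, beside 161 over all tested introns. Their median GC content was 59.0%, beside 55.4% over all tested introns. Shown first are the pair of canonical introns called lower outside GFUS, an intron of GMPPB and, for contrast, an intron of GMPPA that was spliced nearly fully in both groups. The sequences were read from GRCh38 and run 5′ to 3′, and capitals mark the splice site dinucleotides and the first in-frame stop codon. In the MAN2C1 intron the stop follows the GT directly, and the GMPPB intron has no in-frame stop. They lie at chr9:34648895-34648997 (+), chr15:75359776-75359902 (-), chr3:49722755-49722971 (-) and chr2:219505762-219505979 (+).
GALT intron 8: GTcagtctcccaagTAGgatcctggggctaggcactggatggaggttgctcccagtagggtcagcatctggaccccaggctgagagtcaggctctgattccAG
MAN2C1 intron 15: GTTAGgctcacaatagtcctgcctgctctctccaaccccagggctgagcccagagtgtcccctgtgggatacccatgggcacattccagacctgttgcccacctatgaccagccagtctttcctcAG
GMPPB intron 4: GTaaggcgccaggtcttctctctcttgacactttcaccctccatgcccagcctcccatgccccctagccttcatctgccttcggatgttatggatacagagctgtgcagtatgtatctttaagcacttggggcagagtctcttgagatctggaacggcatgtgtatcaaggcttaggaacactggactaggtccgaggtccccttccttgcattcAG
GMPPA intron 10: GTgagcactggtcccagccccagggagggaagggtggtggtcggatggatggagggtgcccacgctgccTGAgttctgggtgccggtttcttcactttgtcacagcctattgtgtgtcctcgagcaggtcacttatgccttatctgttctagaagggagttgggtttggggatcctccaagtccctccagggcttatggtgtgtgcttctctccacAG

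Next are the canonical exons whose inclusion was called higher in siSFSWAP in GMPPB and, with the greatest change, in MAN2C1. The exon is in capitals with 12 flanking intron bases on each side in lower case. GMPPB exon 3 (49 nucleotides, chr3:49723254-49723302) and MAN2C1 exon 7 (107 nucleotides, chr15:75362642-75362748) both lie on the minus strand, and neither length is a multiple of 3.
GMPPB exon 3: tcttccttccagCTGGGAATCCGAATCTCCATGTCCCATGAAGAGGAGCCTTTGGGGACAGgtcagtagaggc
MAN2C1 exon 7: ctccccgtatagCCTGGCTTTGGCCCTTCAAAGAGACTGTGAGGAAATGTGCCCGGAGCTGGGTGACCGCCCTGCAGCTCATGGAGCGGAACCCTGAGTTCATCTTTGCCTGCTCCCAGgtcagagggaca

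Across the members, retention was more often lower than higher after SFSWAP depletion, as it was over all tested introns. Outside GFUS, 24 of 36 tested introns had a lower mean in siSFSWAP and 12 a higher one. Of all tested introns, 61.2% had a lower mean and 38.8% a higher one. The median change was -4.22 percentage points outside GFUS, beside -0.515 points over all tested introns. By the quasi-binomial F test, moderated with limma and adjusted by Benjamini-Hochberg over all tested introns, 3 of the 36 were called lower (2 in GALT and 1 in MAN2C1) and 1 higher, in GMPPA. The GMPPA row and 1 of the GALT rows span exons, and their skipping reads are those of exon skipping. Of 31 tested canonical introns, GFUS included, 23 had a lower mean in siSFSWAP and 8 a higher one. GFUS gave 4 of the 23. A call needed a change of at least 20 points beside an adjusted p no higher than 0.05. Over all tested introns 1.61% were called lower and 0.148% higher. Every siSFSWAP library lay below every siNT library in 13 of the 36 and above in 3, beside 15.3% and 6.04% of all tested introns. Some of the 36 rows overlap and share reads, so they are not 36 separate introns. The 4 GFUS introns all had a lower mean in siSFSWAP, 1 of them past the same rule, and from them nothing is read. In the plot of changes by gene, GMPPB and GFUS lie wholly below 0 and GMPPA mostly above it. With GFUS included, none of the 5 calls was made without siSFSWAP a, b or c or without siNT b, although the change of each stayed at 23.8 points or more in size in every fit in which the row was tested. Calls over all introns dropped as well in those 4 fits, to 14, 50, 19 and 25 lower, against 163 with all libraries. In the same fits 9, 13, 13 and 13 member introns, GFUS included, had an unadjusted p below 0.05, against 15 of 40 with all libraries. Over all tested introns 1605 of 10155 had such a p with all libraries. The shares over all introns in those 4 fits are not reported here, so nothing is read from the member counts. Without siNT a 9 member introns were called, of which 3 were among the 5. Calls over all introns in that fit are not reported here either.

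**Figure D1:**
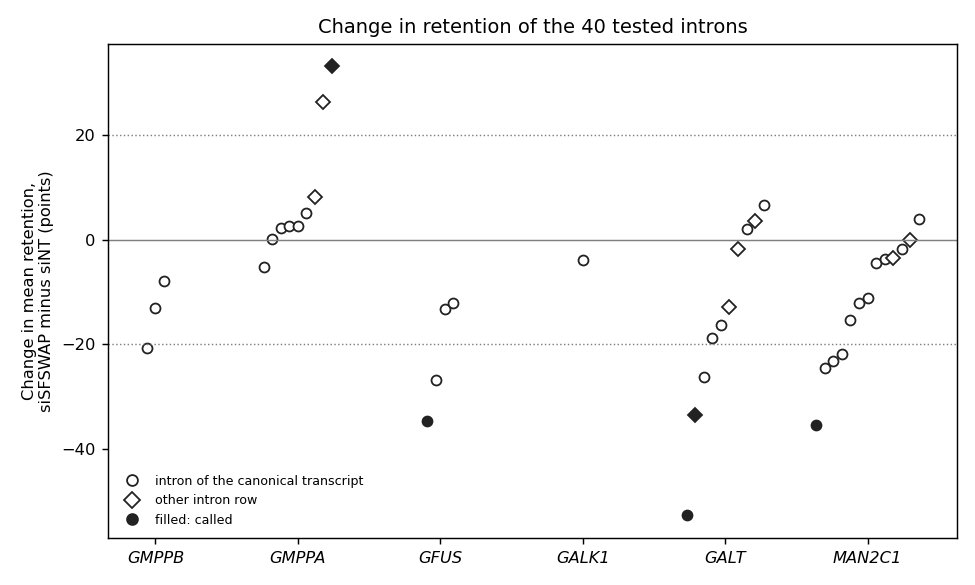
Change in mean retention (siSFSWAP minus siNT, in percentage points) of the 40 tested member introns, by gene; circles are introns of the canonical transcript, diamonds other rows, filled symbols are called and dotted lines mark 20 points either way. The lowest symbol is GALT intron 8 at -52.7 points and the highest a GMPPA row at 33.1 points.

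GFUS, the enzyme that finishes GDP-fucose synthesis, had 4 introns in the table, numbers 5, 6, 8 and 10 of its canonical transcript on the minus strand of chromosome 8. All 4 were retained less in siSFSWAP on average, with changes of -34.6 to -12.1 points. Intron 10 (chr8:143612966-143613195, 230 nucleotides, 68.3% GC) had the greatest depth of the member introns at a mean of 142 reads. In siSFSWAP libraries a, b and c, 24, 19 and 22 inclusion reads stood beside 131, 76 and 88 skipping reads. For siNT a, b and c, 96, 70 and 99 inclusion reads stood beside 159, 43 and 25 skipping reads. Adjusted for junction length, retention was 8.39%, 11.1% and 11.1% in siSFSWAP, against 23.2%, 44.9% and 66.4% in siNT. The siSFSWAP libraries were close together, with a mean of 10.2% ± 1.57, and the siNT libraries were spread widely, at 44.8% ± 21.6 (SD, n = 3 each). Leaving out any 1 library kept the difference between -45.5 and -23.8 points.

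Intron 8 of GFUS (chr8:143613604-143613750) was retained at 15.1%, 23.3% and 12.9% in siSFSWAP, against 25.6%, 47.6% and 58.7% in siNT, again without overlap. Intron 5 (chr8:143614454-143614623) had 19.3%, 12.5% and 22.9% in siSFSWAP, against 18.5%, 36.8% and 39.1% in siNT. Intron 6 (chr8:143614229-143614319) had 4.45%, 12.6% and 11.5% in siSFSWAP, against 7.14%, 29.3% and 28.6% in siNT. In introns 5 and 6 the groups overlapped through siNT a alone, which was the lowest siNT library in all 4 GFUS introns. Over all tested introns siNT a was the lowest of its group in 51.4%, and among the tested member introns, GFUS included, in 21 of 40. That library had the most junction reads, and the part of its depth in these values was not tested.

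**Figure D2:**
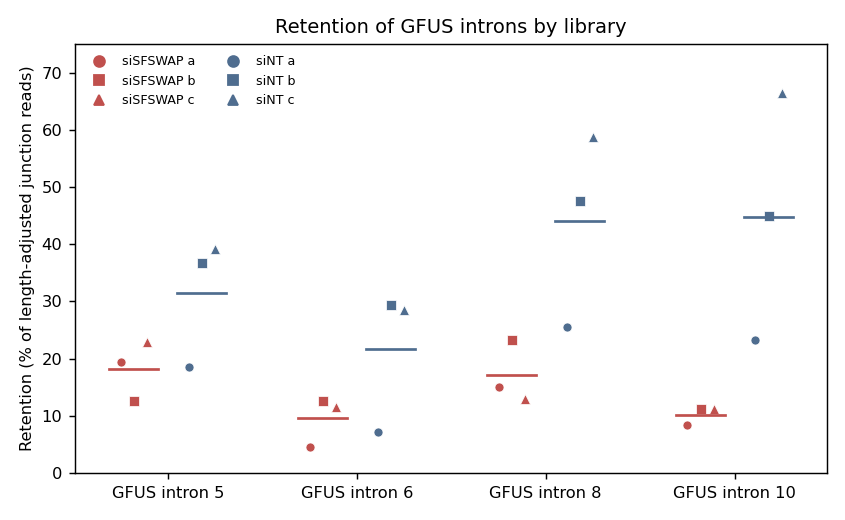
Retention (% of length-adjusted junction reads) of the 4 GFUS introns in each library, siSFSWAP left and siNT right of each pair, with bars at the group means (n = 3). In intron 10 the siSFSWAP libraries lie at 8.39% to 11.1% and the siNT libraries at 23.2% to 66.4%, with siNT a the lowest.

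Among 2918 genes with a tested intron of at least 50 reads, the introns closest to GFUS intron 10 over the 6 libraries included those of TPP1, WDR90, PITPNM1 and SLC25A39. Their mean absolute difference from it was 2.37, 2.64, 2.73 and 2.89 points. The TPP1 intron (chr11:6616504-6616660) was retained at 10.1%, 17.1% and 14.8% in siSFSWAP, against 23.4%, 44.7% and 69.0% in siNT. Its order of siNT libraries, with a lowest and c highest as in GFUS, follows from that choice by closeness and is no separate result.

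GMPPB, which joins mannose 1-phosphate to GTP, had 3 tested introns with the siSFSWAP libraries below all siNT libraries in each, and none was called. Intron 4 was retained at 13.6%, 11.1% and 19.3% in siSFSWAP, against 22.9%, 33.3% and 50% in siNT, a change of -20.8 points (adjusted p = 0.184). Intron 3 (chr3:49723115-49723253) averaged 9.40% ± 5.82 in siSFSWAP and 22.4% ± 6.62 in siNT (SD, n = 3 each; limma-moderated adjusted p = 0.22). Intron 2 (chr3:49723303-49723391) averaged 2.51% ± 1.54 in siSFSWAP and 10.5% ± 4.36 in siNT (SD, n = 3 each; limma-moderated adjusted p = 0.125). Both introns flank exon 3, the exon shown above. The GMPPB row with most reads, at chr3:49723732-49723839 in the 5′ part of the gene, was hardly ever seen spliced. It had 0, 0 and 1 skipping reads beside 80, 54 and 66 inclusion reads in siSFSWAP, and 0, 0 and 0 beside 119, 62 and 69 in siNT, too few skipping reads for a test.

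GMPPA, the regulatory partner of GMPPB, had a higher mean in siSFSWAP in 8 of its 9 tested introns, with a difference under 10 points in 7 of the 9. The called row (chr2:219504214-219505457) spans exon 8 together with introns 7 and 8. It had 0 skipping reads in each siSFSWAP library, but 11, 3 and 2 in the siNT libraries. Retention was thus 100% in each siSFSWAP library, against 69.0%, 62.5% and 69.2% in siNT (adjusted p = 0.024). These skipping reads join exon 7 to exon 9, and they are the same kind of read that marks exon 8 as skipped. The constituent introns 7 (chr2:219504214-219505227) and 8 (chr2:219505363-219505457) were retained at means of 10.3% and 10.8% in siSFSWAP, against 7.72% and 8.57% in siNT. The row at chr2:219505556-219505979, which likewise spans an exon, had 57.6%, 61.5% and 60% in siSFSWAP, against 56.2%, 20% and 24.1% in siNT (adjusted p = 0.282).

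The remaining GMPPA introns were close between groups. Intron 10, the most deeply read, had 3, 0 and 3 inclusion reads beside 112, 82 and 75 skipping reads in siSFSWAP, and 5, 0 and 2 beside 177, 59 and 67 in siNT, or 1.09% ± 1.00 and 0.954% ± 0.827 (SD, n = 3 each). Intron 9 (chr2:219505556-219505714) had 10.4%, 16.1% and 15.9% in siSFSWAP, against 10.03%, 7.53% and 9.40% in siNT, without overlap but with a change of 5.14 points (adjusted p = 0.529). Introns 3 (chr2:219500219-219501475) and 4 (chr2:219501580-219501850) and an alternative form of the latter ending at 219501911 changed by -5.32, 2.51 and 8.12 points, with adjusted p between 0.554 and 0.926. The antisense gene ASIC4-AS1 overlaps all GMPPA introns, and the sources used here do not give library strandedness, so unspliced reads of either strand cannot be told apart.

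GALT, whose loss causes classic galactosemia, had the most strongly changed intron of the group. Intron 8 had 19, 10 and 17 inclusion reads beside 43, 33 and 20 skipping reads in siSFSWAP, and 51, 21 and 23 beside 27, 1 and 3 in siNT. Retention was 18.1%, 13.2% and 29.8% in siSFSWAP, against 48.6%, 91.3% and 79.3% in siNT, a change of -52.7 points (adjusted p = 0.0138). Most GALT RNA read at this intron was thus spliced in siSFSWAP and unspliced in siNT b and c, with siNT a between. A form of the same intron that starts further in, at chr9:34648908-34648997, had too few skipping reads for a test, at 85.2% in siSFSWAP and 100% in siNT on average.

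Further upstream, GALT introns 3 (chr9:34647568-34647656), 4 (chr9:34647706-34647831) and 5 (chr9:34647962-34648114) also had every siSFSWAP library below every siNT library. Their means were 24.6%, 40.3% and 9.21% in siSFSWAP, against 43.3%, 56.6% and 35.5% in siNT, and the adjusted p was 0.205, 0.42 and 0.058. Introns 2 (chr9:34647259-34647491) and 7 (chr9:34648457-34648761) overlapped between groups, with means of 22.0% and 39.4% in siSFSWAP, against 15.4% and 37.4% in siNT. Retention was therefore not lower in every intron of this gene.

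The other called GALT row (chr9:34647259-34647831) covers introns 2 to 4 with their exons. Its skipping junction joins exon 2 to exon 5 and had 5, 3 and 7 reads in siSFSWAP, against 0, 0 and 0 in siNT. Inclusion was 65.5%, 77.8% and 56.2% in siSFSWAP, against 100% in each siNT library (adjusted p = 0.0306), so the measured change was a transcript form lacking exons 3 and 4. Other alternative rows, at chr9:34647259-34647540 and chr9:34647568-34647831 in this stretch and at chr9:34649032-34649409 downstream of intron 8, changed by 3.62, -12.8 and -1.81 points, with adjusted p between 0.69 and 0.802. The gene ENSG00000258728 overlaps all GALT introns on the same strand, and its reads would not be separate. GALK1, which phosphorylates galactose one step earlier, had only intron 7 (chr17:75758128-75758209). It had 7, 3 and 12 inclusion reads beside 37, 32 and 27 skipping reads in siSFSWAP, and 19, 7 and 5 beside 51, 18 and 22 in siNT, at 11.3% ± 7.52 and 15.2% ± 3.58 (SD, n = 3 each; limma-moderated adjusted p = 0.702).

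**Figure D3:**
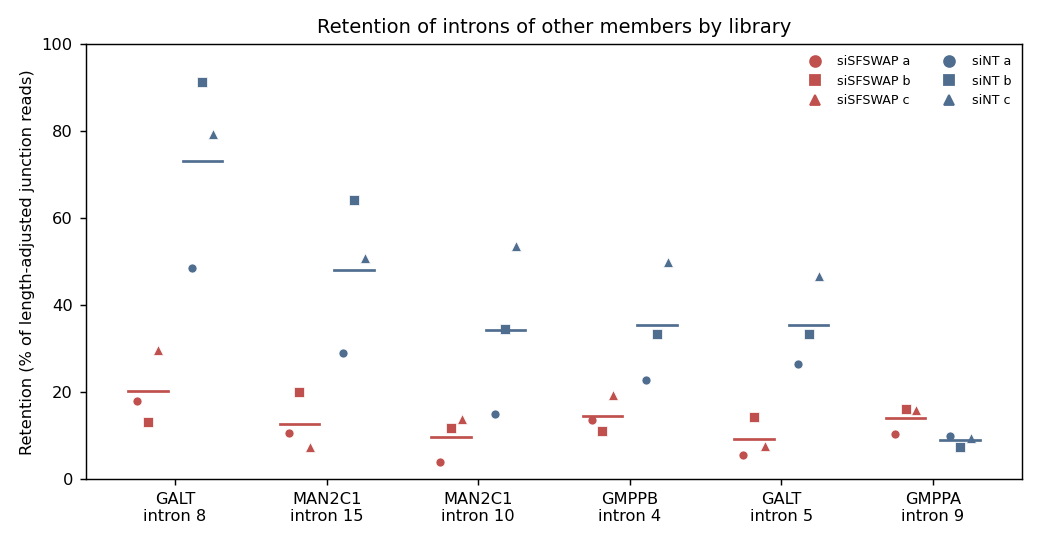
Retention (% of length-adjusted junction reads) of 6 introns of GALT, MAN2C1, GMPPB and GMPPA in each library, siSFSWAP left and siNT right of each pair, with bars at the group means (n = 3). GALT intron 8 averages 20.4% in siSFSWAP and 73.1% in siNT, while GMPPA intron 9 lies slightly higher in siSFSWAP.

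MAN2C1, the cytosolic mannosidase, had lower mean retention in siSFSWAP in 12 of 13 tested introns. The called intron 15 had 10, 13 and 4 inclusion reads beside 42, 26 and 25 skipping reads in siSFSWAP, and 36, 43 and 27 beside 44, 12 and 13 in siNT. Retention was 10.6%, 20% and 7.41% in siSFSWAP, against 29.0%, 64.2% and 50.9% in siNT, a change of -35.4 points (adjusted p = 0.0297). Intron 10 (chr15:75361382-75361603) was retained at 3.90%, 11.8% and 13.9% in siSFSWAP, against 15%, 34.5% and 53.6% in siNT (adjusted p = 0.13). The deepest MAN2C1 intron, number 17 (chr15:75359154-75359327), had 52, 53 and 61 inclusion reads beside 21, 18 and 20 skipping reads in siSFSWAP, and 119, 76 and 61 beside 25, 9 and 2 in siNT. It was retained at 58.4% ± 2.72 in siSFSWAP and 81.7% ± 11.7 in siNT (SD, n = 3 each; limma-moderated adjusted p = 0.13). Most RNA read at this intron kept it in both groups.

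Intron 22 of MAN2C1 (chr15:75356686-75356792) was the fourth without overlap, at 48.0%, 51.5% and 54.1% in siSFSWAP, against 54.7%, 70.1% and 75% in siNT (adjusted p = 0.375). Introns 7 (chr15:75362454-75362641), 1 (chr15:75368199-75368482) and 24 (chr15:75356220-75356300) had means of 14.4%, 70.8% and 17.6% in siSFSWAP, against 36.3%, 82.9% and 28.7% in siNT. Introns 19 (chr15:75358619-75358703), 9 (chr15:75361721-75361854) and 18 (chr15:75358809-75359058) differed by under 5 points, and intron 20 (chr15:75358345-75358461) was the single one with a higher mean, by 3.90 points. Of these 7 introns none was called, with adjusted p between 0.264 and 0.996. The alternative rows at chr15:75359192-75359327 and chr15:75359367-75359619 were near full retention, at 93.6% and 97.5% in siSFSWAP, against 97.1% and 97.6% in siNT. Rows at chr15:75359209-75359619 and chr15:75359352-75359619 had too few skipping reads for a test, with 96.5% and 99.2% in siSFSWAP and 100% in siNT. The gene NEIL1 overlaps introns 22 and 24 on the other strand, and ENSG00000260274 overlaps intron 1. MPI, PMM2 and GNE had no row in the retained intron table.

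Exon inclusion was mostly higher in siSFSWAP. Of 61 tested member exon rows, 48 had a higher mean in siSFSWAP and 13 a lower one, with a median change of 6.25 points beside 0.295 over all tested exon rows. Of these, 8 were called higher (5 in MAN2C1, 2 in GMPPB and 1 in GALT) and 1 lower, in GALT. Over all tested exon rows 57.5% had a higher mean and 42.5% a lower one, and 1.44% were called higher and 0.655% lower. The siSFSWAP libraries lay above all siNT libraries in 25 member rows and below in 3, beside 14.3% and 9.06% of all tested exon rows. Many rows share reads, and the 9 calls rest on 6 skipping junctions. Without siSFSWAP a, b or c the calls numbered 1, 4 and 1, and without siNT b they numbered 2. Calls over all exon rows in those fits are not reported here, so a loss particular to the members cannot be told from a general one. The 61 rows include 1 of GFUS, which was not called.

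In MAN2C1, a junction from exon 5 to exon 8 leaves out exons 6 and 7, and it had 3, 1 and 4 reads in siSFSWAP, against 12, 18 and 12 in siNT. Exon 7 had 45, 19 and 26 inclusion reads in siSFSWAP, against 35, 12 and 7 in siNT. Its inclusion was 88.2%, 90.5% and 76.5% in siSFSWAP, against 59.3%, 25.0% and 22.6% in siNT, a change of 49.4 points (adjusted p = 0.00677). Exon 6 (chr15:75363999-75364188, 190 nucleotides), read against the same junction, had 76, 48 and 42 inclusion reads in siSFSWAP, against 81, 23 and 23 in siNT. Its inclusion was 92.7%, 96.0% and 84.0% in siSFSWAP, against 77.1%, 39.0% and 48.9% in siNT (adjusted p = 0.0175). The form lacking both exons was thus the minor one in every siSFSWAP library. Against the exon 5 to exon 7 junction, exon 6 averaged 86.0% in siSFSWAP and 82.4% in siNT (limma-moderated adjusted p = 0.996). Against the exon 6 to exon 8 junction, exon 7 averaged 98.3% in siSFSWAP and 77.4% in siNT (limma-moderated adjusted p = 0.153). Neither row was called.

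MAN2C1 exon 20 (chr15:75358462-75358618, 157 nucleotides) had 107, 75 and 85 inclusion reads in siSFSWAP, against 140, 59 and 42 in siNT. The junction that skips it, from exon 19 to exon 21, had 0 reads in each siSFSWAP library and 4, 16 and 7 in siNT. Inclusion was 100% in each siSFSWAP library, against 94.6%, 64.8% and 75% in siNT (adjusted p = 0.00883). A row with a shortened end (chr15:75358462-75358614) had 41, 27 and 25 inclusion reads in siSFSWAP, against 64, 32 and 22 in siNT, and a row with the other end shortened (chr15:75358507-75358618) had 66, 48 and 62, against 76, 28 and 20. Both use the same skipping reads and averaged 100% in siSFSWAP, against 66.7% ± 20.03 and 65.3% ± 22.6 in siNT (SD, n = 3; limma-moderated adjusted p = 0.0141 and 0.0045).

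GMPPB exon 3 was called against 2 skipping junctions. Against a junction from exon 2 to exon 8 it had 37, 25 and 27 inclusion and 0 skipping reads per library in siSFSWAP, and 32, 21 and 18 inclusion beside 6, 4 and 5 skipping reads in siNT. Inclusion was 100% in each siSFSWAP library, against 78.1%, 77.8% and 70.7% in siNT (adjusted p = 0.00789). Against a junction from exon 2 to exon 5 it had 39, 24 and 29 inclusion beside 1, 1 and 1 skipping reads in siSFSWAP, and 30, 16 and 12 beside 5, 6 and 4 in siNT. Inclusion was 96.3%, 94.1% and 95.1% in siSFSWAP, against 80.1%, 64.1% and 66.7% in siNT (adjusted p = 0.0465). Exon 4 (chr3:49722972-49723114), read against the exon 3 to exon 5 junction, was the single tested GMPPB exon row with 50 reads and overlapped between groups at 95.6% ± 4.27 in siSFSWAP and 91.2% ± 13.2 in siNT (SD, n = 3 each; limma-moderated adjusted p = 0.932). Against a junction from exon 3 to exon 8, a row chosen after its values were seen, exon 4 was included at 100%, 93.3% and 100% in siSFSWAP, against 89.5%, 66.7% and 41.9% in siNT. The groups did not overlap there, and the change of 31.8 points was not called (adjusted p = 0.0672), while without siNT a it was (0.000907).

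GALT had a call in each direction. The row lower in siSFSWAP (chr9:34647492-34647705) takes exons 3 and 4 with the intron between as 1 block, and it rests on the exon 2 to exon 5 junction of the called intron row. It had 21, 17 and 9 inclusion reads in siSFSWAP, against 43, 13 and 13 in siNT, or 67.7%, 73.9% and 39.1% against 100% in each siNT library (adjusted p = 0.00896). Exon 5 (chr9:34647832-34647961) was called against the exon 2 to exon 6 junction, which leaves out exons 3 and 4 as well. It had 30, 21 and 25 inclusion reads in siSFSWAP, against 29, 7 and 4 in siNT. These inclusion reads take in the exon 2 to exon 5 junction, so the calls in opposite directions share reads. The exon 2 to exon 6 junction had 0 reads per library in siSFSWAP, against 5, 0 and 2 in siNT. Inclusion was 100% in each siSFSWAP library, against 74.4%, 100% and 50% in siNT (adjusted p = 0.0435), with siNT b at the siSFSWAP level. Against the exon 4 to exon 6 junction, exon 5 averaged 98.4% in siSFSWAP and 98.6% in siNT, with too few skipping reads for a test.

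**Figure D4:**
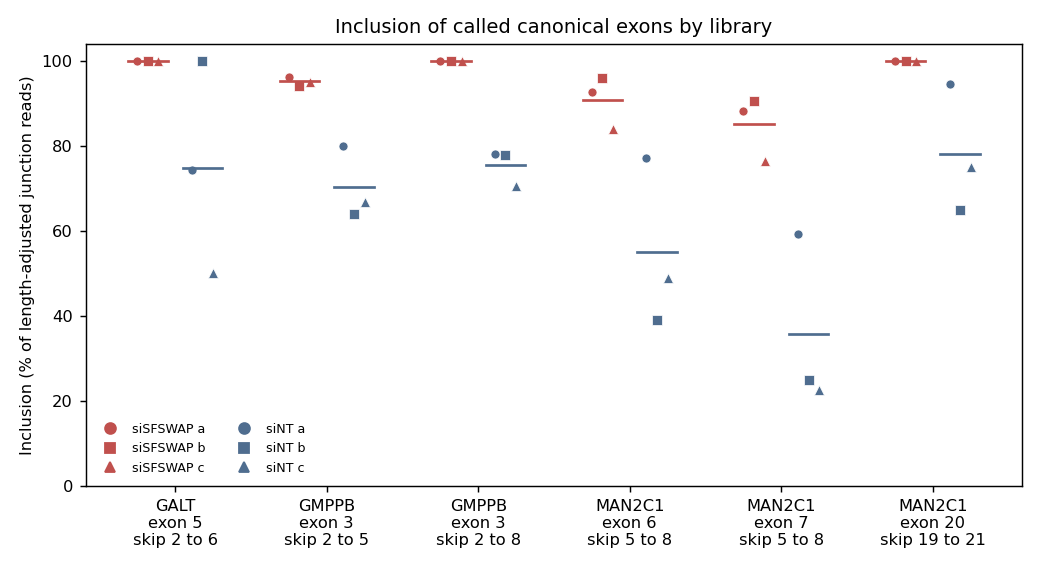
Inclusion (% of length-adjusted junction reads) of the called rows of canonical exons in each library, siSFSWAP left and siNT right of each pair, with bars at the group means (n = 3) and the exons joined by the skipping junction named below. MAN2C1 exon 7 averages 85.1% in siSFSWAP and 35.6% in siNT.

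In the other genes no exon row was called. GFUS exon 5 (chr8:143614624-143614697), its single tested exon row, was included at 96.1%, 97.8% and 94.0% in siSFSWAP, against 88.9%, 79.3% and 85.1% in siNT, a change of 11.6 points. In GMPPA a form of exon 8 (chr2:219505293-219505362) had 0 skipping reads in each siSFSWAP library and 11, 3 and 2 in siNT, the counts given above for the called intron row, at 100% in siSFSWAP and 88.8% ± 3.02 in siNT (SD, n = 3; limma-moderated adjusted p = 0.0182, below 20 points). MPI, the isomerase at the start of mannose metabolism, had lower values in a shortened form of exon 7 (chr15:74897105-74897219), between exons 6 and 8. Its inclusion was 59.2%, 58.1% and 49.1% in siSFSWAP, against 72.2%, 64.4% and 73.5% in siNT (adjusted p = 0.105). The full exon 7 (chr15:74897011-74897219), read against the same skipping reads, averaged 65.1% in siSFSWAP and 78.8% in siNT (limma-moderated adjusted p = 0.096). PMM2 exon rows changed by -1.62 to 13.6 points, and the row with the largest change among those with 50 reads (chr16:8811079-8811423) averaged 75.2% ± 9.35 in siSFSWAP and 68.3% ± 8.87 in siNT (SD, n = 3 each; limma-moderated adjusted p = 0.519). GNE had 2 tested exon rows, with differences of -5.86 and -1.24 points, overlapping groups and a sign that turned on leaving out 1 library, and the single GALK1 row differed by 10.9 points.

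The spliced reads of each gene, summed over its exon rows and scaled to CPM, give a rough level of spliced RNA. Changes in splicing and changes in RNA amount both move them and cannot be told apart. By limma on log2(CPM + 0.5), 5 of 9 members were called higher and 1 lower, beside 14.7% and 15.6% of 10780 genes. GNE, the sialic acid enzyme, had 3.14, 3.69 and 4.16 CPM in siSFSWAP, against 1.94, 0.926 and 1.26 CPM in siNT, a log2 change of 1.18 ± 0.22 (SE; adjusted p = 0.00336). GALK1 had 12.2, 13.5 and 12.6 CPM in siSFSWAP, against 8.41, 6.67 and 5.04 CPM in siNT (log2 change 0.90, adjusted p = 0.00345). GALT had 12.3, 15.8 and 12.9 CPM in siSFSWAP, against 8.56, 7.79 and 5.48 CPM in siNT (log2 change 0.88, adjusted p = 0.00408). In these 3 genes every siSFSWAP library was above every siNT library.

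MAN2C1 had 93.9, 113 and 109 CPM in siSFSWAP, against 72.8, 78.9 and 64.2 CPM in siNT (log2 change 0.55, adjusted p = 0.00364). GMPPB had 12.2, 12.5 and 11.8 CPM in siSFSWAP, against 8.46, 8.48 and 8.499 CPM in siNT (log2 change 0.49, adjusted p = 0.0127, or 0.0548 without siSFSWAP b). PMM2, the phosphomutase whose deficiency is a frequent congenital disorder of glycosylation, was the member that fell, to 83.5, 82.4 and 69.2 CPM in siSFSWAP, against 111, 161 and 154 CPM in siNT (log2 change -0.84, adjusted p = 0.00155). GFUS (41.5 ± 3.16 CPM in siSFSWAP and 35.0 ± 5.06 CPM in siNT, SD, n = 3 each), GMPPA (29.6 ± 3.57 and 27.2 ± 1.97 CPM) and MPI (64.4 ± 2.10 and 58.4 ± 3.33 CPM) had log2 changes of 0.25, 0.12 and 0.14 and were not called by limma. GFUS passed only without siNT a (log2 change 0.35, limma adjusted p = 0.0149). Leaving out any other library gave no call, with log2 changes down to 0.139 and limma adjusted p up to 0.466.

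**Figure D5:**
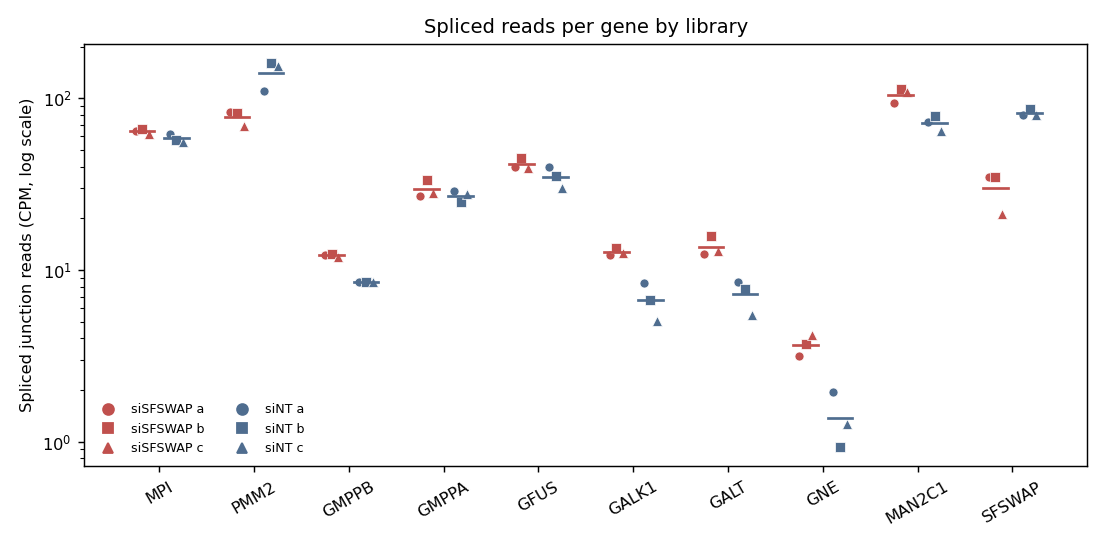
Spliced junction reads (CPM, logarithmic axis) of the 9 members and SFSWAP in each library, siSFSWAP left and siNT right of each pair, with bars at the group means (n = 3); CPM are not adjusted for gene length, so heights compare only within a gene. PMM2 and SFSWAP are lower in siSFSWAP, and GNE, GALK1, GALT, MAN2C1 and GMPPB are higher.

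Other enzymes of nucleotide sugar synthesis and salvage were set beside the members. Of 27 listed genes, 10 had 21 tested introns, of which 1 was called lower (4.76%, beside the 1.61% of all tested introns) and none higher, with a median change of -1.01 points. The called intron was in RENBP, which interconverts N-acetylglucosamine and N-acetylmannosamine, at 14.2% ± 1.43 in siSFSWAP and 52.3% ± 19.3 in siNT (SD, n = 3 each; limma-moderated adjusted p = 0.0262). In the same list 118 exon rows were tested in 21 genes, with 6 called higher (5.08%, beside 1.44% of all tested exon rows), among them rows of AMDHD2, and 1 lower in GFPT2 (0.847%, beside 0.655%). Of 29 genes of nucleotide sugar transport and GDP-mannose or GDP-fucose use, 22 tested introns and 95 exon rows had no call. Of 13 further mannosidase and related genes, 18 tested introns and 54 exon rows had none.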

How the data were processed

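Junction reads were counted in polyadenylated RNA of HEK293A-TOA cells (3 siSFSWAP and 3 siNT libraries). Per the submitters' processing notes, reads were trimmed with cutadapt 1.9.1 and aligned with STAR 2.7 to GRCh38, and the authors then ran rMATS. The deposited tables used here list retained introns and skipped exons. Per row they give raw junction read counts as lists of 3 values per group, effective junction lengths in nucleotides, and inclusion fractions. The authors did not normalize the counts. The deposited p-value and FDR columns hold the authors' own comparison and were not used. The deposited inclusion difference, a score from -1 to 1, served only to tell which list is which group, through the definition given in the study's text. Coordinates are 1-based on GRCh38, and splice positions came from GENCODE release 44, whereas the authors aligned to an earlier release.

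Inclusion was recomputed as counts over effective lengths and is called retention for introns. Rows entered the test when they averaged 20 or more reads per library, had at least 5 reads of each form, and had reads in at least 2 libraries per group. Each was fitted by a quasi-binomial model with a two-sided F test, whose dispersion was moderated with limma 3.58.1 in R 4.3.3, and p-values were adjusted by Benjamini-Hochberg over the whole table. A call needed a change of 20 points and an adjusted p no higher than 0.05, the thresholds of the study. Dispersion was estimated from Pearson residuals, to which a group with full inclusion in every library adds nothing, and was floored at the level of counting error. That choice, over the deviance, was made after the calls of both had been seen. Spliced reads per gene were compared with limma on log2(CPM + 0.5), with 1 row per exon. The tests were tried on simulated data, where most changes at the call threshold were missed in both tables and, in exon rows, most of those well above it too, so a row without a call is not shown to be unchanged.

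The 9 genes, the pathway lists and the rows to name were chosen with earlier results of these data known. Every intron row of a member that met the minimum was named. Some genes that the naming rules cover are not reported here. Exon rows were named where called, and per gene where the change was largest among rows with at least 50 reads. Alternatives were another test, other read minimums and thresholds, no floor on dispersion, raw-count inclusion, and leaving out each library. Counting error and PCR duplicates were not separated. Nearest to the minimum, GMPPA chr2:219505556-219505979 with a mean of 20.2 reads was inside, and MAN2C1 chr15:75368199-75368443 with 19.7 was outside.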

Additional observations from a re-analysis of the deposited data

How the results depend on the processing

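Of the 5 calls among member introns, 1 of them in GFUS, 0 were made by limma on log odds (16 unadjusted p below 0.05) and 1 with a minimum of 50 reads, while no read filter, a threshold of 0.1, an unfloored dispersion and the deviance dispersion (an alternative chosen after seeing the data) each gave 5. Leaving out 1 library gave 0 to 9. Of the 9 exon calls, limma gave 6, a minimum of 50 reads 3, no read filter 1, a threshold of 0.1 gave 11 and the deviance 7, and leaving out 1 library gave 1 to 11. Over all introns the calls were 163 lower and 15 higher, and 0 by limma (the cause was not tested). Over all exon rows they were 315 lower and 692 higher, 94 and 177 by limma, 187 and 215 without a read filter, and 353 and 1509 without siNT a. The 6 calls among genes stayed at 5 to 7, including under median-ratio scaling, also added after seeing the data. With inclusion from raw counts these called rows fell below 20 points: the GMPPA intron row (19.9 points), GALT exon 5 (16.0), GMPPB exon 3 (17.8 and 18.9) and MAN2C1 exon 20 (12.8).

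Rows whose sign turned on leaving out 1 library are given as ranges over the fits in which the row was tested: GALT chr9:34647259-34647540 (-0.628 to 9.68 points), intron 7 (-4.00 to 9.35) and chr9:34649032-34649409 (-6.42 to 1.895), GMPPA intron 10 (-0.338 to 0.687), MAN2C1 introns 18 (-5.58 to 1.899) and 9 (-6.75 to 0.447) and chr15:75359367-75359619 (-1.28 to 1.18), GMPPB exon 4 against the exon 3 to exon 5 junction (-3.29 to 8.71), and the GNE exons at chr9:36249192-36249397 (-12.0 to 3.23) and chr9:36236832-36236984 (-3.35 to 0.239). MAN2C1 exon 6 against the exon 5 to exon 7 junction turned sign as well, with a range of -4.79 to 9.35 points. No paired analysis was possible because the deposited lists carry no replicate number. The planned negative binomial alternatives, with trimmed-mean and size-factor scaling, were not run. Many member rows had under 50 reads per library, and a row without a call may still differ by 20 points or more.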
